A study of Oryza sativa with 46 samples.

Results

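The 9 loci described here are listed as clade A protein phosphatases 2C (PP2C) of abscisic acid signalling in rice. Their members were found by name, as the non-control spots of a rice oligo microarray whose probe name begins with 1 of the 9 locus identifiers. All 9 loci had a probe, and together they held 13 probes of 1 spot each, out of 42477 probes and 29923 loci. Each probe is given here by its locus and by the transcript in its name. Os01g0583100 (CI535252), Os01g0656200 (AK068272), Os03g0268600 (AK069274), Os05g0457200 (CI000749), Os05g0537400 (C97686) and Os09g0325700 (AK063334) had 1 probe. Os01g0846300 (AK065949 and AK071996) and Os05g0572700 (AK108969 and AK119929) had 2 probes, and Os05g0592800 (AK067627, AK070388 and AK104323) had 3. By the locus numbers, 3 of these loci lie on chromosome 1, 1 on chromosome 3, 4 on chromosome 5 and 1 on chromosome 9. The study annotated Os05g0592800 as an ABI2 type protein phosphatase 2C, and Os03g0268600 and Os05g0572700 as protein phosphatases of type 2C.

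Abscisic acid is the hormone by which plants respond to drought and salt. In the absence of the hormone, clade A PP2C enzymes remove phosphate from SnRK2 protein kinases and keep them inactive. Receptors of the PYR/PYL/RCAR family that have bound abscisic acid block the phosphatases, and the freed kinases phosphorylate bZIP transcription factors that switch on dehydrin, LEA (late embryogenesis abundant) and other stress genes. Genes of clade A phosphatases are themselves known as targets of the hormone in Arabidopsis, where they act as negative feedback on the pathway. ABI2, the name given in the annotation of Os05g0592800, is an Arabidopsis phosphatase of this clade.

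Total RNA of whole seedlings (root and shoot) aged 16 days after emergence was labelled with Cy3 and hybridised to one-color Agilent arrays, 1 seedling per array. Seedlings in nutrient solution received either 0 mM NaCl or 120 mM NaCl for 48 h, with a lower dose given first. The 8 genotypes were the indica landrace Pokkali (listed as tolerant), the indica varieties PSBRc50 and IR58 (moderately tolerant), the indica high yielding variety BRRIdhan 29 (susceptible), the japonica cultivars Banikat (moderately tolerant) and Nipponbare (susceptible), and the wild species Oryza latifolia and Oryza rufipogon (both susceptible). Each of the 16 groups held 3 arrays, except IR58 at 0 mM and BRRIdhan 29 at 120 mM with 2 each, which gave 46 arrays in all, 23 per treatment, on 12 slides scanned on 6 days. All levels below are log2 signals after quantile normalization between arrays, a scale on which levels of different probes are not compared. A salt effect is the level at 120 mM minus that at 0 mM.

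The scanner software flagged 20914 to 36693 probes of an array as well above background, meaning a signal clearly beyond that around the spot, and the 5 O. latifolia arrays nearest their own label held the lowest numbers (20914 to 23526 against 26898 to 36693 on the other 41). The 4 leaf and 3 root marker loci were well above background on all 46 arrays, as labelled for whole seedlings. On 38 arrays the profile, as deviation from the median array, correlated best with the other arrays of the labelled genotype (r 0.23 to 0.93 over all probes). On the other 8 arrays the correlation with the labelled genotype lay between −0.09 and 0.10, and that with another genotype between 0.42 and 0.84. These 8 were PSBRc50 at 120 mM replicate 3, IR58 at 0 mM replicate 2, BRRIdhan 29 at 0 mM replicate 2, O. latifolia at 120 mM replicate 2 and all 4 arrays of replicate 3 of Banikat and Nipponbare. The libraries labelled Banikat and Nipponbare also stood apart in 5 dehydrin and LEA loci, whose mean level was 13.09 to 15.50 in replicates 1 and 2 at 0 mM and 4.82 to 11.76 at 120 mM. In the 6 other genotypes this mean was 4.65 to 10.75 at 0 mM and 3.57 to 15.90 at 120 mM, the lowest value at 120 mM being that of PSBRc50 replicate 3. Replicate 3 had 5.52 at 0 mM and 13.86 at 120 mM in Banikat, and 4.97 and 12.29 in Nipponbare. The sources used here do not settle whether the treatment labels of replicates 1 and 2 of Banikat and Nipponbare were exchanged, so the sign of every salt effect given for these 2 genotypes, and each test of differences between genotypes that includes them, holds only for the arrays as labelled. All arrays were kept as labelled, and the results are given with and without them.

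Averaged over the 8 genotypes, 3 of the 13 PP2C probes were higher at 120 mM by limma's test (Benjamini-Hochberg adjusted over all probes, threshold 0.05), and none was lower. They belonged to Os05g0572700, Os09g0325700 and Os01g0583100. None of the 13 was called when pairs of arrays of 1 genotype on 1 slide were fitted as a block. Over the whole array 1.94% of the probes passed this test, 1.24% higher and 0.704% lower. At an unadjusted p under 0.05, 6 of the 13 PP2C probes passed, all higher, against 8.02% of all probes in that direction. Of the 9 loci, by the probe with the highest mean level, 8 had a positive mean effect and the median was 0.96 on the log2 scale, while the median over all 29923 loci was −0.01 and 14464 of them were positive. In RNA of whole seedlings, a change in the number of cells that express a gene and a change in RNA per cell cannot be told apart.

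**Figure D1:**
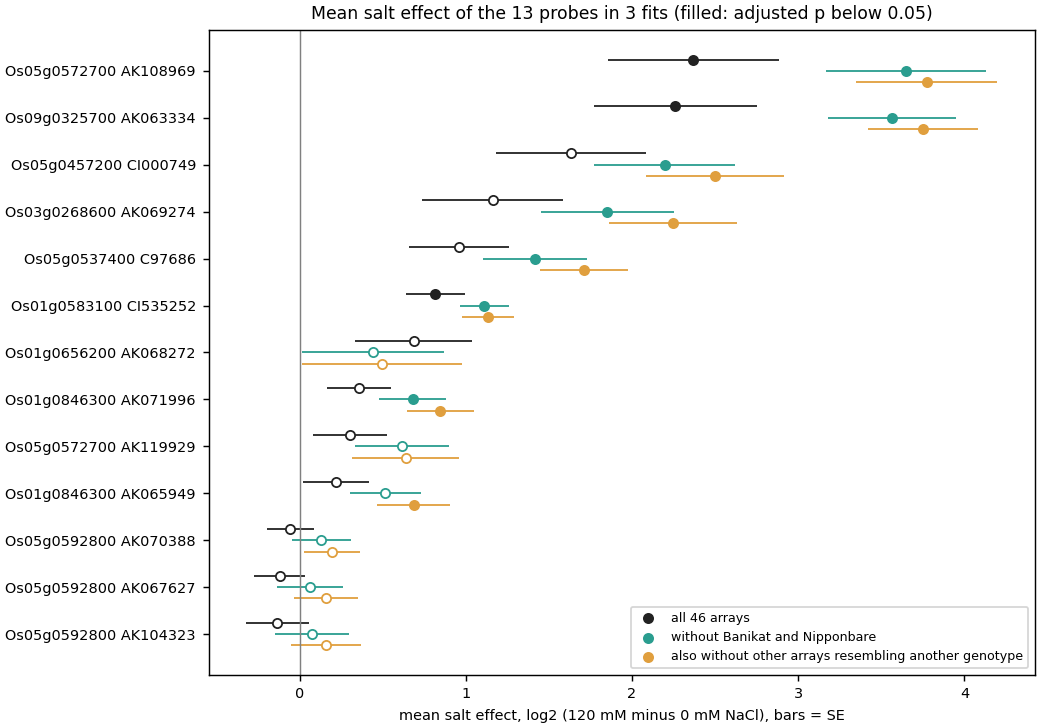
Mean salt effect of the 13 probes (x axis, log2 of 120 mM over 0 mM NaCl, bars SE), in fits of all 46 arrays, without the arrays labelled Banikat and Nipponbare, and also without the other arrays that resembled another genotype; filled points had an adjusted p below 0.05. In the first fit 3 points are filled, in the second 7 and in the third 8, and the 3 probes of Os05g0592800 stay within 0.20 of zero in each. AK119929 was not well above background on most arrays, so its values give no measured change.

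Os09g0325700, 1 of the loci called, had the second largest mean effect. In Pokkali its level was 12.46, 9.17 and 10.33 at 0 mM and 12.99, 13.36 and 11.81 at 120 mM. In PSBRc50 it was 11.23, 10.14 and 9.23 at 0 mM and 12.98, 14.26 and 9.09 at 120 mM. In both genotypes the treatments overlapped, and the lowest array of PSBRc50 at 120 mM was replicate 3, which resembled another genotype. In IR58 the level was 9.20 and 9.31 at 0 mM and 14.04, 14.39 and 13.69 at 120 mM. In BRRIdhan 29 it was 8.99, 8.43 and 9.48 at 0 mM and 13.93 and 13.38 at 120 mM. In these moderately tolerant and susceptible indica varieties every salt array stood above every control array, with no value between 9.48 and 13.38. Replicate 2 at 0 mM resembled another genotype in both, BRRIdhan 29 for IR58 (9.31) and IR58 for BRRIdhan 29 (8.43). Without these, IR58 keeps 1 control array. In O. latifolia the level was 9.84, 10.02 and 10.12 at 0 mM and 14.15, 14.28 and 13.39 at 120 mM. In O. rufipogon it was 7.93, 8.70 and 9.34 at 0 mM and 11.24, 13.42 and 13.26 at 120 mM. The wild species thus showed no overlap either, though the O. latifolia array at 14.28, replicate 2 at 120 mM, resembled another genotype (PSBRc50). In the arrays labelled Banikat it was 13.88, 14.48 and 8.94 at 0 mM and 8.50, 9.09 and 12.79 at 120 mM. In those labelled Nipponbare it was 14.55, 13.80 and 7.99 at 0 mM and 10.99, 9.89 and 12.48 at 120 mM. Replicates 1 and 2 of both japonica genotypes were therefore high at 0 mM and low at 120 mM, whereas replicate 3 was low at 0 mM and high at 120 mM.

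The genotype means of Os09g0325700 averaged 10.28 ± 1.39 (SD, n = 8 genotypes) at 0 mM and 12.54 ± 1.39 at 120 mM, an effect of 2.26 (SE 0.49, 4.79-fold, limma adjusted p = 0.0125) that was positive in 6 genotypes, as 19.8% of all probes were in at least that many. The arrays of the 2 treatments did not overlap in 4 genotypes, namely IR58, BRRIdhan 29, O. latifolia and O. rufipogon, where 18.6%, 18.3%, 5.17% and 9.81% of all probes were higher at 120 mM without overlap. In 17 of 22 pairs of arrays of 1 genotype on 1 slide the salt array was higher (8.08% of all probes were higher in at least 16), including 15 of the 16 pairs of the genotypes other than Banikat and Nipponbare (2.93% of all probes were higher in at least 15 of these). The exception was the PSBRc50 pair with replicate 3 at 120 mM (−0.14). Over the 12 slides the mean within-slide difference ran from −4.65 to 5.08 and was positive on 10. With slide as a block the effect was 2.26 (SE 0.51, adjusted p = 0.0290), and 1.62% of all probes were called.

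Os05g0572700 had the largest effect, measured by the probe AK108969. In Pokkali the level was 7.87, 6.24 and 5.20 at 0 mM and 9.91, 9.93 and 8.38 at 120 mM. In PSBRc50 it was 6.30, 4.79 and 5.36 at 0 mM and 10.07, 10.95 and 5.09 at 120 mM. Pokkali showed no overlap, where 5.77% of all probes were higher without overlap, and in PSBRc50 only the salt array of replicate 3 lay within the range of the controls. In IR58 the level was 5.57 and 4.72 at 0 mM and 11.42, 10.18 and 8.63 at 120 mM. In BRRIdhan 29 it was 6.12, 4.78 and 3.63 at 0 mM and 9.93 and 8.23 at 120 mM. The array at 3.63, BRRIdhan 29 replicate 3, was not well above background for this probe. In O. latifolia the level was 7.30, 8.62 and 7.37 at 0 mM and 9.24, 11.07 and 9.26 at 120 mM. In O. rufipogon it was 5.80, 6.02 and 4.83 at 0 mM and 7.89, 11.53 and 10.56 at 120 mM. In both wild species and both of these indica varieties the salt arrays lay above all control arrays. Replicate 2 of IR58 and BRRIdhan 29 at 0 mM and of O. latifolia at 120 mM resembled another genotype. In the arrays labelled Banikat it was 9.40, 10.70 and 4.53 at 0 mM and 4.48, 5.68 and 7.66 at 120 mM. In those labelled Nipponbare it was 9.94, 10.24 and 4.52 at 0 mM and 7.76, 6.34 and 8.59 at 120 mM. The japonica replicates were split here in the same way as for Os09g0325700. Of the 46 arrays, 43 were well above background, and the exceptions at 0 mM were BRRIdhan 29 replicate 3, Banikat replicate 3 and O. latifolia replicate 3.

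The mean level of this probe of Os05g0572700 was 6.46 ± 1.42 (SD, n = 8 genotypes) at 0 mM and 8.83 ± 1.43 at 120 mM, a difference of 2.37 (SE 0.51, 5.17-fold, limma adjusted p = 0.0125), positive in 6 genotypes. The salt array was higher in 17 of 22 pairs within a slide and in 15 of 16 outside the japonica genotypes, where the PSBRc50 pair with replicate 3 at 120 mM differed by −0.27. With slide as a block the effect was 2.45 (SE 0.47, adjusted p = 0.0134). The other probe of this locus, AK119929, was well above background on 5 of the 46 arrays only, so no fold is given for it. Its level was 1.51 to 5.45 at 0 mM (median 2.04) and 1.43 to 6.29 at 120 mM (median 2.55), and its mean effect was not called (adjusted p = 0.508). The probes of Os05g0572700 had a correlation of 0.519 over the 46 arrays, and what the dim probe measures was not tested.

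Os01g0583100 was called with a smaller and tighter effect. At 0 mM its level was 11.25, 10.66 and 10.35 in Pokkali, 10.45, 10.42 and 9.27 in PSBRc50, 10.47 and 9.84 in IR58, and 9.62, 10.05 and 9.79 in BRRIdhan 29. At 120 mM it was 11.46, 11.56 and 11.46 in Pokkali, 10.68, 11.51 and 10.46 in PSBRc50, 11.86, 11.36 and 11.27 in IR58, and 11.02 and 10.66 in BRRIdhan 29. In all 4 indica genotypes the salt arrays lay above the controls without overlap, though narrowly in PSBRc50 (10.46 above 10.45, in a genotype where 4.94% of all probes were higher without overlap). In the wild species it was 10.01, 9.92 and 10.08 (O. latifolia) and 9.91, 9.82 and 9.87 (O. rufipogon) at 0 mM, and 11.29, 11.07 and 11.52 and 10.64, 11.68 and 11.58, in the same order, at 120 mM. In the arrays labelled Banikat it was 11.74, 12.07 and 9.67 at 0 mM and 10.95, 10.57 and 11.31 at 120 mM, and in those labelled Nipponbare 11.70, 11.67 and 10.26 at 0 mM and 11.47, 10.19 and 12.18 at 120 mM. Outside the japonica arrays no genotype showed an overlap, and all 16 pairs within a slide were higher with salt, by 0.22 to 1.85. Among them are the arrays of PSBRc50, IR58, BRRIdhan 29 and O. latifolia that resembled another genotype. The share of all probes without overlap in every one of these genotypes was not counted. Over all genotypes the mean was 10.38 ± 0.58 (SD, n = 8 genotypes) at 0 mM and 11.19 ± 0.26 at 120 mM, an effect of 0.82 (SE 0.18, 1.76-fold, limma adjusted p = 0.0125) that was positive in 7 genotypes. With slide as a block it was 0.82 (SE 0.19, adjusted p = 0.0286).

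**Figure D2:**
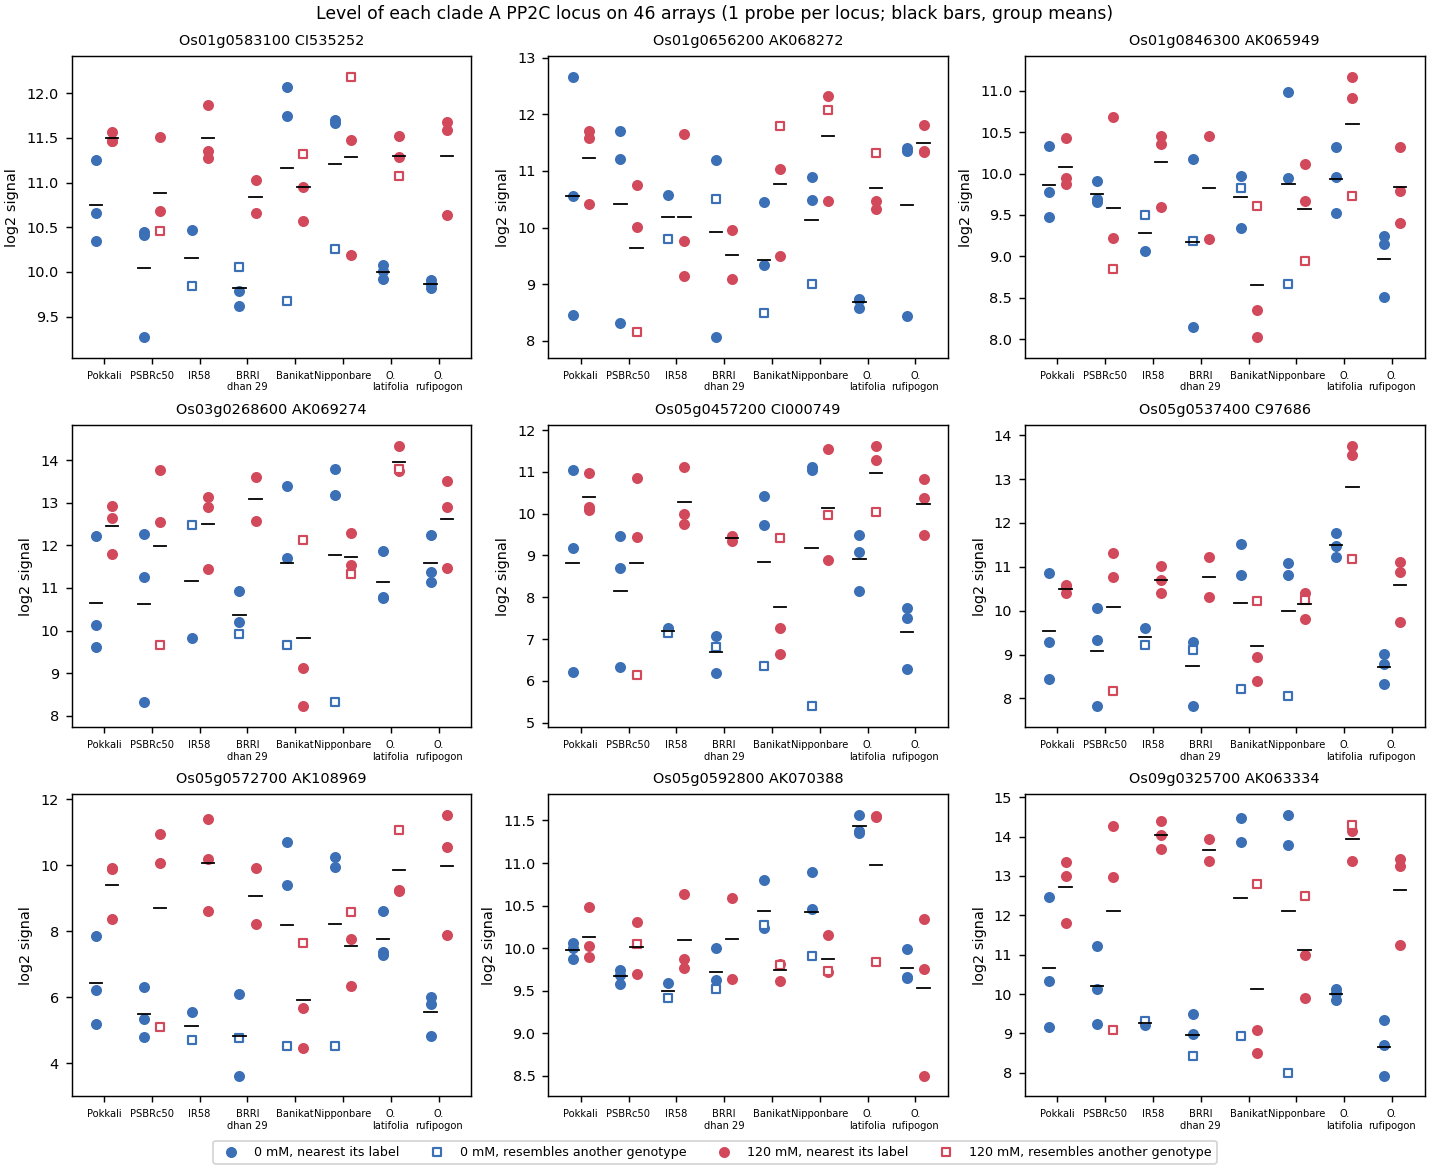
Level of each locus on each of the 46 arrays (y axis, log2 signal; x axis, labelled genotype; blue 0 mM and red 120 mM NaCl; squares, the 8 arrays that resembled another genotype; black bars, group means), 1 probe per locus. Os09g0325700, Os05g0572700 and Os01g0583100 have all red points above all blue ones in 4, 5 and 6, in this order, of the 6 genotypes other than Banikat and Nipponbare, and Os05g0592800 at 0 mM stands highest in O. latifolia. The share of all probes without overlap in as many genotypes was not counted.

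Of the loci that were not called, Os05g0457200 lay closest to the threshold, with a level of 5.39 to 11.10 at 0 mM (median 7.75) and 6.14 to 11.62 at 120 mM (median 9.98). Its mean effect was 1.64 (SE 0.45, adjusted p = 0.0502), and with slide as a block 1.64 (SE 0.43, adjusted p = 0.0489). Its controls lay far apart within some genotypes, as in Pokkali with 11.05, 9.18 and 6.21. Os05g0537400 ranged from 7.82 to 11.77 at 0 mM (median 9.30) and from 8.16 to 13.75 at 120 mM (median 10.54), with a mean effect of 0.96 (SE 0.30, adjusted p = 0.0828). Os03g0268600 ranged from 8.33 to 13.79 at 0 mM (median 11.15) and from 8.22 to 14.33 at 120 mM (median 12.57), with 1.16 (SE 0.43, adjusted p = 0.134). All 16 pairs of arrays on a slide outside the japonica genotypes were higher with salt for Os03g0268600, 14 for Os05g0537400 and 13 for Os05g0457200. Of all probes, 2.93% were higher in at least 15 of these pairs. The larger shares for at least 14 or 13 were not counted, so these 2 counts are not read as a result.

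Os01g0846300 was measured by a pair of probes with a correlation of 0.923 over the arrays. Probe AK065949 ranged from 8.14 to 10.98 at 0 mM and from 8.02 to 11.17 at 120 mM, and its mean effect was 0.22 (SE 0.20, adjusted p = 0.612). For probe AK071996 the effect was 0.36 (SE 0.19, adjusted p = 0.328). Os01g0656200 ranged from 8.06 to 12.66 at 0 mM and from 8.16 to 12.31 at 120 mM, with an effect of 0.69 (SE 0.35, adjusted p = 0.304). It differed from the loci above in that the salt array was higher in only 7 of the 16 pairs outside the japonica genotypes. In O. latifolia this locus was 8.74, 8.71 and 8.58 at 0 mM and 10.32, 11.32 and 10.47 at 120 mM, and in Pokkali 12.66, 10.56 and 8.45 against 11.59, 10.41 and 11.71, so that the controls of Pokkali spanned the whole range of its salt arrays.

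The ABI2 type locus Os05g0592800 showed the smallest differences between treatments. Its probe AK070388 ranged from 9.41 to 11.56 at 0 mM (median 9.99) and from 8.50 to 11.55 at 120 mM (median 9.88), with a mean effect of −0.06 (SE 0.14, adjusted p = 0.884). For AK067627 the effect was −0.12 (SE 0.16, adjusted p = 0.746) and for AK104323 −0.13 (SE 0.19, adjusted p = 0.769). The correlations between these probes over the 46 arrays were 0.987, 0.804 and 0.771. The effect was negative for all 3 probes with all arrays, also with scaling to the 75th percentile, but positive (0.06 to 0.13, none called) without the japonica genotypes.

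Which probes were called depended on the genotypes and on the blocking. The sizes moved less, except that they rose when the arrays labelled Banikat and Nipponbare were left out. With each pair of arrays of 1 genotype on 1 slide as a block, a fit added after the values were seen that leaves 14 residual degrees of freedom, none of the 13 probes was called, and 0.0612% of all probes were. The effects in it were 2.25 for Os09g0325700 (SE 0.58, adjusted p = 0.118), 2.46 for Os05g0572700 (SE 0.56, adjusted p = 0.0861) and 0.84 for Os01g0583100 (SE 0.21, adjusted p = 0.109). Without IR58, without BRRIdhan 29, without O. rufipogon or without both wild species, none of the 13 probes was called for the mean effect. These fits called 0.0895%, 0.115%, 0.224% and 0.00471% of all probes, in this order. With Pokkali left out only Os09g0325700 was called, and with O. latifolia left out only Os05g0572700 (AK108969), where 0.431% and 0.532% of all probes were called. Over these 6 fits the effect was 1.69 to 2.29 for Os09g0325700, 2.00 to 2.41 for Os05g0572700 and 0.63 to 0.83 for Os01g0583100, and without Pokkali it was 2.28 (adjusted p = 0.0622) for Os05g0572700 and 0.83 (adjusted p = 0.0552) for Os01g0583100. Without the arrays labelled Banikat and Nipponbare, 7 of the 13 probes were called, all higher, where 16.5% of all probes were called. Os05g0572700 (AK108969) then rose by 3.65 (SE 0.48, limma adjusted p = 1.82e-05) and Os09g0325700 by 3.56 (SE 0.38, adjusted p = 1.91e-06). Os01g0583100 (1.11), Os05g0457200 (2.20), Os03g0268600 (1.85), Os05g0537400 (1.42) and probe AK071996 of Os01g0846300 (0.68) were the others called. When the other arrays that resembled another genotype were left out as well, 30 arrays remained and both probes of Os01g0846300 were among 8 called, against 22.8% of all probes. These sets of arrays were chosen after the values had been seen.

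Within single genotypes, none of the 104 pairs of a PP2C probe and a genotype passed limma's test with all arrays, where 0.513% of such pairs on the array did. At an unadjusted p under 0.05 there were 21 such pairs, all with higher levels at 120 mM, against 8.14% of all such pairs in either direction. For Os09g0325700 the effect was 4.79 in IR58 (SE 1.50), 4.69 in BRRIdhan 29 (SE 1.50), 3.98 in O. rufipogon (SE 1.34) and 3.95 in O. latifolia (SE 1.34, adjusted p = 0.0905, the smallest of the 104). It was 2.06 in Pokkali and 1.91 in PSBRc50, and −2.30 and −0.99 in the arrays labelled Banikat and Nipponbare (SE 1.34 each). Os05g0572700 (AK108969) had 4.94 in IR58, 4.44 in O. rufipogon, 4.24 in BRRIdhan 29, 3.22 in PSBRc50, 2.97 in Pokkali, 2.09 in O. latifolia, −0.67 in Nipponbare and −2.27 in Banikat (SE 1.41 to 1.57). The order of the genotypes within this range is not resolved by errors of this size.

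**Figure D3:**
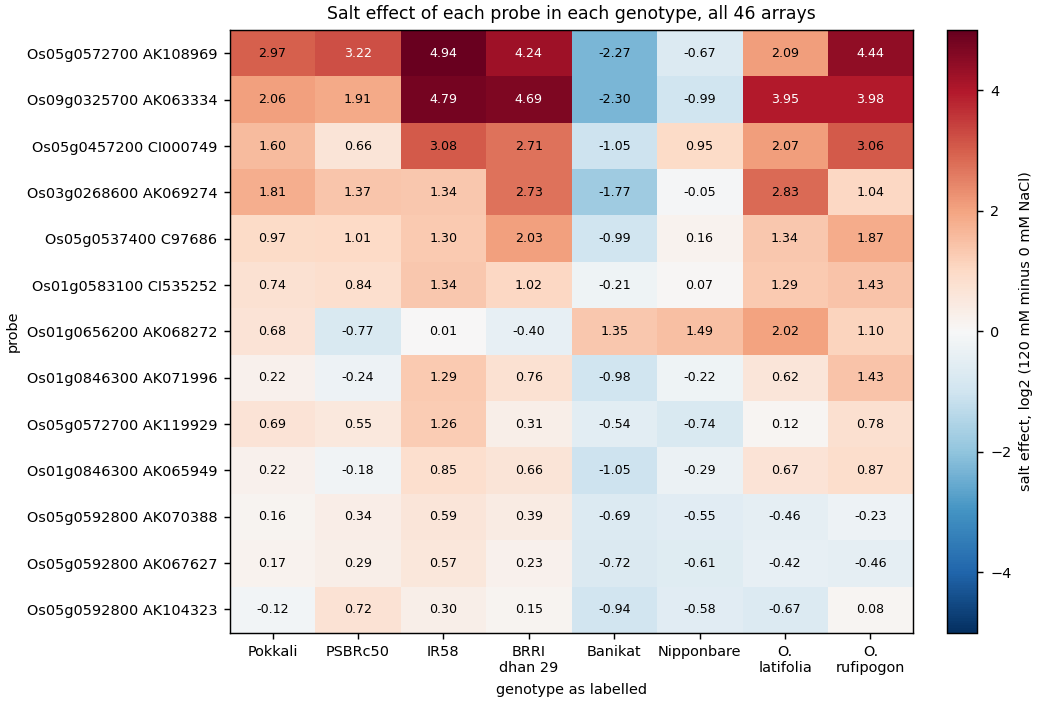
Salt effect of each probe (rows) in each labelled genotype (columns) as log2 of 120 mM over 0 mM NaCl, red higher and blue lower, with all 46 arrays. The 2 upper rows range from −2.30 to 4.94, and Banikat is the column in which 12 of 13 probes are negative, with labels as deposited. The values of the dim probe AK119929 give no measured change.

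The differences of the salt effect between genotypes were tested with an F test in limma. None of the 13 probes was called with all arrays (0.6% of all probes were), and 3 had an unadjusted p under 0.05, the smallest being 0.00445, as did 11.3% of all probes. Without the 8 arrays that resembled another genotype, 7 probes were called, where 13.5% of all probes were. They were those of Os09g0325700, Os05g0572700 (AK108969), Os05g0537400, Os03g0268600, Os01g0583100, Os05g0457200 and Os01g0846300 (AK071996). In this fit, which leaves IR58 at 0 mM with 1 array that is assumed to vary like the other groups, 16 of the 104 pairs of a probe and a genotype were called, where 2.7% of all pairs were. Os09g0325700 was called in 7 genotypes, higher in IR58 (4.84), BRRIdhan 29 (4.42), O. rufipogon (3.98), O. latifolia (3.78) and PSBRc50 (3.42) and lower in the arrays labelled Banikat (−5.38) and Nipponbare (−3.73). Only in Pokkali was its effect of 2.06 not called (adjusted p = 0.363). Of all probes this fit called 4.65% in PSBRc50, 0.549% in IR58, 1.27% in BRRIdhan 29, 3.49% in O. latifolia, 2.25% in O. rufipogon, 0.254% in Pokkali, 8.04% in Banikat and 1.07% in Nipponbare. Os05g0572700 (AK108969) was higher in PSBRc50 (5.03), O. rufipogon (4.44) and BRRIdhan 29 (4.20) and lower in Banikat (−4.97). Os05g0537400 (2.16) and Os01g0583100 (1.40) were higher in O. latifolia and Os01g0583100 (1.43) also in O. rufipogon, while Os05g0537400 (−2.49) and Os03g0268600 (−3.88) were lower in Banikat. When Banikat and Nipponbare were left out as well, no PP2C probe was called for a difference between the remaining 6 genotypes (0.826% of all probes were) or had an unadjusted p under 0.05, the smallest being 0.176.

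The level of Os09g0325700 and the mean of the 5 dehydrin and LEA loci moved together over the arrays, with a correlation of 0.918 over 46 arrays, which share treatment and slide. For Os05g0572700 (AK108969) it was 0.870, for Os01g0583100 0.784, for Os05g0457200 0.749, for Os03g0268600 0.693 and for Os05g0537400 0.580. Os01g0656200 had 0.327, and the probes of Os05g0592800 lay between −0.0889 and 0.0936. The japonica arrays of replicates 1 and 2 were high in both measures at 0 mM and lower in both at 120 mM. At 0 mM they had 13.80 to 14.55 for Os09g0325700 beside dehydrin and LEA means of 13.09 to 15.50, and at 120 mM 8.50 to 10.99 beside 4.82 to 11.76. Their part in the results of labelled treatments was not tested beyond leaving them out.

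**Figure D4:**
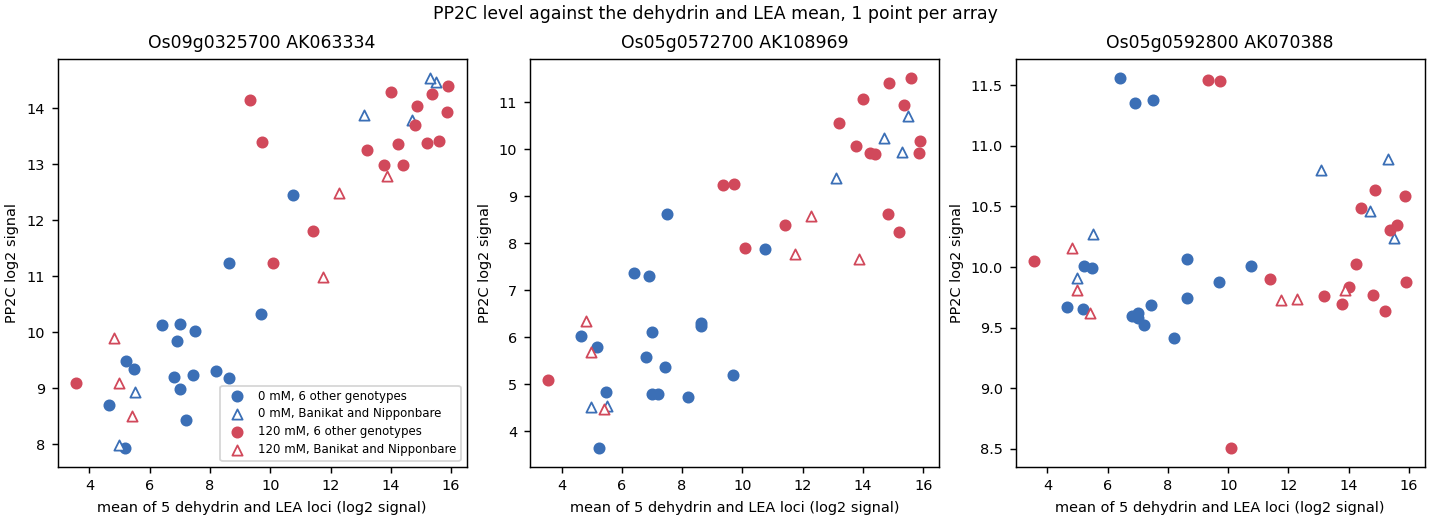
Level of a PP2C probe (y axis, log2 signal) against the mean level of 5 dehydrin and LEA loci (x axis, log2 signal), 1 point per array, blue 0 mM and red 120 mM NaCl, triangles for arrays labelled Banikat and Nipponbare. Points for Os09g0325700 and Os05g0572700 rise along the x axis, triangles included (correlations 0.918 and 0.870 over 46 arrays), while those for Os05g0592800 do not (0.0936).

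Between genotypes without salt, 5 of the 13 PP2C probes differed by limma's F test, against 61.9% of all probes. They were the 3 probes of Os05g0592800 (adjusted p = 0.000773 to 0.00627), that of Os01g0583100 (adjusted p = 0.0367) and the dim probe AK119929 of Os05g0572700 (adjusted p = 0.00171), which was below the background flag on most arrays. For the AK070388 probe of Os05g0592800 the level at 0 mM was 11.35, 11.38 and 11.56 in O. latifolia, 10.80, 10.24 and 10.28 in Banikat, 10.89, 10.46 and 9.91 in Nipponbare, and 10.01, 10.06 and 9.87 in Pokkali. It was 9.65, 9.67 and 9.99 in O. rufipogon, 9.62, 9.52 and 10.01 in BRRIdhan 29, 9.75, 9.58 and 9.69 in PSBRc50 and 9.59 and 9.41 in IR58. O. latifolia stood above every other array, and below it the arrays of neighbours in this order overlapped. Its arrays also had the fewest probes above background at 0 mM. The part of this in its higher level after quantile normalization was not tested. Os01g0583100 was highest in the arrays labelled Nipponbare (11.21 ± 0.82, SD, n = 3) and Banikat (11.16 ± 1.30) and lowest in BRRIdhan 29 (9.82 ± 0.22). With O. latifolia left out, none of the 13 probes was called at 0 mM (7.12% of all probes were), and with slide as a block 3 were (53.3%).

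Between genotypes at 120 mM, 3 of the 13 probes differed, against 40.2% of all probes: Os05g0537400 (adjusted p = 0.0354), AK071996 of Os01g0846300 (adjusted p = 0.0379) and again AK119929. Os05g0537400 was 13.55, 11.18 and 13.75 in O. latifolia, the middle array being the one that resembled another genotype, and between 8.16 and 11.31 in all other arrays. AK071996 of Os01g0846300 was highest in O. latifolia (10.44 ± 0.79, SD, n = 3) and IR58 (10.40 ± 0.25) and lowest in Banikat (8.50 ± 0.80). No PP2C probe was called with O. latifolia left out or with slide as a block, when 7.02% and 31.2% of all probes were. Without Banikat 1 was called (39.5% of all probes) and 11 without the 8 arrays that resembled another genotype (68.6%). The number of probes above background was also lowest in O. latifolia, and its part in these differences was not tested.

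The study listed 4 genotypes as tolerant or moderately tolerant and 4 as susceptible. Their mean salt effects differed for none of the 13 PP2C probes by limma's test (0.0118% of all probes were called), and none had an unadjusted p under 0.05, the smallest being 0.144, against 1.89% of all probes. The difference, tolerant minus susceptible, was −1.29 (SE 0.98) for Os09g0325700, −1.13 (SE 0.90) for Os05g0457200, −0.95 (SE 0.85) for Os03g0268600, −0.31 (SE 1.03) for Os05g0572700 (AK108969) and −0.28 (SE 0.35) for Os01g0583100. For Os05g0592800 it was 0.24 to 0.39. Banikat stood among the tolerant and Nipponbare among the susceptible genotypes here, both with the arrays described above.

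Around the phosphatases, the other loci of the pathway were counted by 1 probe per locus. Of the receptors, 8 of the 10 listed loci had a probe, none was called for the mean effect (3 had an unadjusted p under 0.05), 2 were positive and the median was −0.28. This median lay between Os06g0528300 (−0.30) and Os06g0526400 (−0.27), which were well above background on 4 and 2 of 46 arrays. It therefore gives no measured change. The receptor locus with the smallest p, Os10g0573400, had −0.51 (SE 0.16, adjusted p = 0.0812). Among 10 SnRK2 kinases, Os03g0390200 was called with 1.38 (SE 0.26, limma adjusted p = 0.00678), and the median of the list was 0.18 (3 had an unadjusted p under 0.05, in either direction). Among 7 bZIP factors Os01g0867300 was called with 1.35 (SE 0.29, adjusted p = 0.0120), and the median was 0.37 (5 had an unadjusted p under 0.05, in either direction). None of 9 loci of abscisic acid synthesis and breakdown was called (3 at an unadjusted p under 0.05), with a median of 0.01 and the smallest p at Os08g0472800 (1.01, SE 0.30, adjusted p = 0.0679). The 5 dehydrin and LEA loci, for proteins that protect drying cells, were all higher with salt, each with an unadjusted p under 0.05. The 3 called were the LEA locus Os05g0542500 (4.24, SE 1.02) and the dehydrin loci Os11g0454300 (4.10, SE 1.01) and Os11g0454200 (4.07, SE 1.03). The median of the 5 was 4.07. Of the phosphatases 3 of 9 were called with a median of 0.96, and over all loci 1.9% were. None of the 4 leaf or 3 root markers was called, with medians of −0.03 and −0.45, and 1 root marker had an unadjusted p under 0.05.

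**Figure D5:**
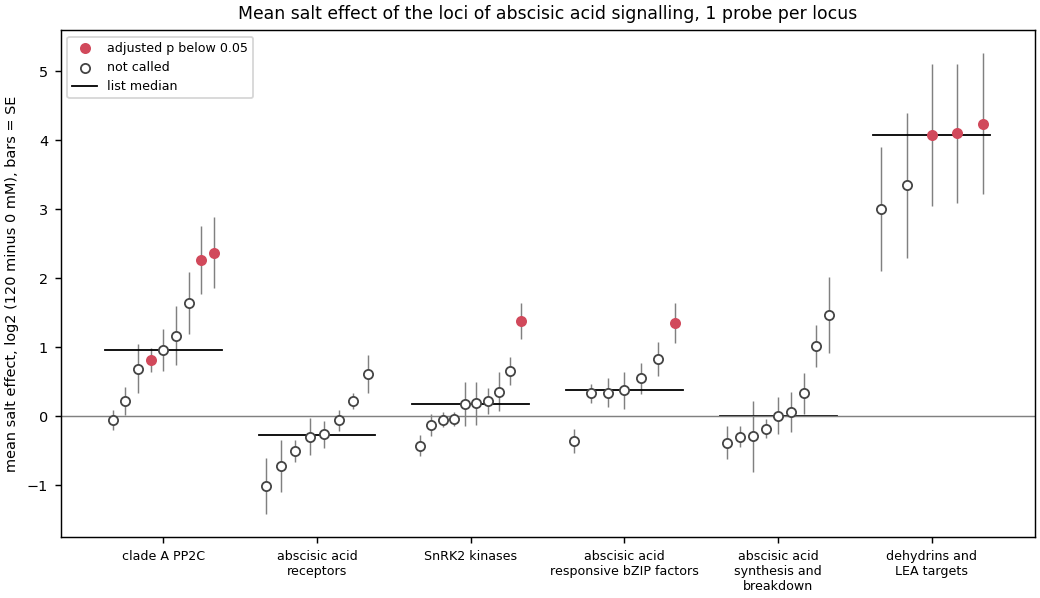
Mean salt effect of each locus (y axis, log2 of 120 mM over 0 mM NaCl, bars SE) for the phosphatases and 5 further lists of abscisic acid signalling, 1 probe per locus; red points had an adjusted p below 0.05 and black lines are list medians. The median is −0.28 for the receptors, 0.96 for the phosphatases and 4.07 for the dehydrin and LEA loci. That of the receptors rests on loci below the background flag on most arrays and gives no measured change.

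Likeness between loci was measured as Pearson's r over the 38 arrays nearest their label, after the mean of each genotype was taken off. These arrays share treatments and slides, so the values are descriptions. Os09g0325700, Os05g0572700, Os01g0583100, Os05g0457200, Os05g0537400 and Os03g0268600 had 0.816 to 0.930 with each other. Os01g0656200 had −0.0529 to 0.553 with the other 8 loci, and Os05g0592800 −0.0529 to 0.553 as well. Among 23051 other loci well above background on enough of these arrays, those most like Os09g0325700 were Os01g0794400 (0.968), Os05g0373900 (0.965, annotated in the study as a peptide chain release factor) and Os03g0305600 (0.963). Over all 46 arrays, without taking off the genotype means, these had 0.943, 0.887 and 0.894. Os03g0305600 was also the locus most like Os05g0572700 (0.966), followed by Os01g0225000 (0.962) and Os06g0651200 (0.961), with 0.847, 0.950 and 0.748 over all arrays. For Os01g0583100 the most alike were Os01g0214500 (0.958), Os01g0794400 (0.932) and Os12g0147200 (0.928), with 0.803, 0.787 and 0.736 over all arrays. Os01g0214500 led for Os05g0457200 too (0.890, and 0.889 over all arrays), before Os07g0418600 (0.881, 0.712) and Os05g0494600 (0.877, 0.844). Os05g0537400 was most like Os03g0146400 (0.913, 0.788), then Os01g0658900, annotated as G-box binding factor 1 (0.912, 0.657), and Os04g0538700 (0.911), which had only 0.246 over all 46 arrays. Os03g0268600 was most like Os01g0172400 (0.896, 0.718), Os03g0146400 (0.887, 0.848) and the glutathione S-transferase locus Os01g0692000 (0.882, 0.835). Of the loci that were less alike among the phosphatases, Os01g0656200 and Os01g0846300 also had lower values here. For Os01g0656200 the most alike were Os04g0566600 (0.780, 0.280), Os02g0496500 (0.778, 0.281) and Os01g0702300 (0.772, 0.200). For Os01g0846300 they were Os06g0728700 (0.767, 0.543), Os02g0823300 (0.767, 0.674) and Os06g0345200 (0.763, 0.252). Those of Os05g0592800, namely Os03g0851900 (0.877, 0.781), Os07g0659400 (0.864, 0.730) and Os01g0498200 (0.851, 0.590), were close to those of Os05g0457200.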

How the data were processed

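The authors deposited, per spot, a processed signal intensity (Agilent Feature Extraction 10.7.3.1), background-subtracted and not normalized between arrays, and a table of log2 values for 42475 probes that they quantile-normalized. Log2 signals were here quantile-normalized over 43734 non-control spots, leaving out outlier spots (19 to 563 per array; no spot was saturated). Spots of a probe were averaged. Differences were tested with limma 3.58.1 (lmFit, eBayes; R 4.3.3) on 16 group means, with Benjamini-Hochberg adjustment over 42477 probes and a threshold of 0.05. The number of arrays limits the precision. On simulated data, 43% of log2 changes of 1 and 88% of changes of 2 in the mean salt effect were recovered among 42477 probes. The simulated arrays had independent errors, no differences between genotypes and the same change in every genotype. Correlated arrays of a slide and genotypes of opposite sign were not simulated, so these shares may not hold for the data. Replicates were separate seedlings. A locus with several probes is represented in lists by the brightest one. Every PP2C probe is named, and from each other list at most 3 loci, those called with the largest change or else the one with the smallest p. Likeness names the 3 loci with the highest r. The members and lists were chosen with earlier results of these data known. The locus table provided matched no locus of the array, so names come from the study's annotation. Alternatives were 75th percentile scaling, normexp (offset 50), the authors' values, leaving out dim probes (36176 were kept), arrays or genotypes, and blocking by slide, by scan day or by replicate number. Same-numbered arrays of a genotype lay on 1 slide in 21 of 22 pairs. The correlations of their deviations ran from −0.03 to 0.46 and were above 0.1 in 8 of the 22 same-numbered pairs. This does not show that paired arrays were independent. The fit without a block is given first, and beside it that with pairs as a block, which called none of the PP2C probes. Probe sequences were not used here.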

Additional observations from a re-analysis of the deposited data

Results flagged for a closer look

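Among probes well above background on most arrays and genotypes with 3 pairs, the pairs of arrays on a slide all moved one way in one genotype and all the other way in another for 2 probes. The share of all probes with this pattern was not counted. With 3 pairs per genotype, the number is therefore not read as a result about the PP2C probes. The salt effect of Os01g0656200 (AK068272) was −0.77 in PSBRc50, where all 3 pairs were lower at 120 mM, and 1.35 in Banikat and 2.02 in Oryza latifolia, where all 3 were higher. For probe AK065949 of Os01g0846300 it was −1.05 in Banikat, lower in all 3 pairs, and 0.87 in Oryza rufipogon, higher in all 3. The differences between these particular genotypes were not tested. The F test over all 8 genotypes did not call either probe (limma adjusted p = 0.971 and 0.768). The array of PSBRc50 at 120 mM replicate 3, the array of O. latifolia at 120 mM replicate 2 and both Banikat arrays of replicate 3 resembled another genotype. Without such arrays the effect of Os01g0656200 was −0.02 in PSBRc50, 0.38 in Banikat and 1.71 in O. latifolia, and that of AK065949 was −1.47 in Banikat and 0.87 in O. rufipogon. With the 2 pairs of IR58 counted as well, AK067627 and AK070388 of Os05g0592800 were higher in both pairs of IR58 (0.57 and 0.59) and lower in all 3 pairs of Banikat (−0.72 and −0.69) and of Nipponbare (−0.61 and −0.55).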

How the results depend on the processing

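The mean salt effect called 3 of the 13 probes with all arrays (1.94% of all probes). It called 5 with 75th percentile scaling (2.81%), with normexp (3.22%) or with scan day as a block (3.32%). Without Banikat 6 were called (11.4%), without Nipponbare 5 (5.91%) and without both 7 (16.5%). With pairs of arrays of 1 genotype on 1 slide as a block 0 were called (0.0612%). Without Pokkali (0.431%) or O. latifolia (0.532%) 1 was called. None was called without IR58 (0.0895%), BRRIdhan 29 (0.115%), O. rufipogon (0.224%) or both wild species (0.00471%). Calls within genotypes (0 with all arrays) were 3 with 75th percentile scaling (0.413% of all pairs of a probe and a genotype), 16 without the resembling arrays (2.7%), 2 without the japonica genotypes (0.473%) and 9 without these and the resembling arrays (2.02%). Differences of the effect between genotypes were called for 7 probes without the resembling arrays. At 0 mM, 5 probes differed between genotypes, 3 with slide as a block (53.3% of all probes), 10 without the resembling arrays (74%), and 0 without O. latifolia (7.12%) or both wild species (4.96%), against 61.9% with all arrays. At 120 mM, 3 differed (40.2%), 6 with 75th percentile scaling (41.2%) or scan day as a block (44.9%), 0 with slide as a block (31.2%), 11 without the resembling arrays (68.6%), 1 without Banikat (39.5%), and 0 without O. latifolia (7.02%) or both wild species (4.45%). Leaving out 1 array gave 3 to 5 for the mean effect, 0 to 1 within genotypes, 0 to 2 for differences between genotypes, 4 to 9 at 0 mM and 0 to 7 at 120 mM. The mean effect called 5 without PSBRc50 120 mM replicate 3, Banikat 0 mM replicate 2 or O. latifolia 120 mM replicate 2. At 0 mM, 8 differed without Banikat 0 mM replicate 3 and 9 without Nipponbare 0 mM replicate 3. At 120 mM, 0 differed without O. latifolia replicate 3, 7 without its replicate 2, 1 without its replicate 1 or Banikat replicate 1 or 2, 6 without Banikat replicate 3 and 5 without O. rufipogon replicate 2. Shares over all probes are not given for the fits that leave out 1 array. Their counts are therefore not read as a result about the PP2C probes. Over all probes the mean effect called 826 with all arrays, 1369 with normexp, 1410 with scan day as a block, 4842 without Banikat, 2511 without Nipponbare, and 2 to 226 without 1 of the other genotypes or both wild species.

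For Os05g0592800 the sign of the mean effect turned, with no call. AK070388 had 0.035 without Banikat, 0.014 without Nipponbare, 0.0013 without O. latifolia and 0.041 without both wild species, and −0.12 to 0.015 when 1 array was left out (the highest without O. latifolia at 120 mM replicate 2). Without the japonica genotypes AK070388 had 0.13, AK067627 0.062 and AK104323 0.076, and also without the resembling arrays 0.19, 0.16 and 0.16. Of the other alternatives for single probes, 784 kept direction and call, 41 gained a call and 19 lost it, the latter with a genotype or both wild species left out or with pairs as a block. The 75th percentile scaling moved the median effect of all probes from −0.01 to 0.11, and under it Os05g0457200 passed the threshold, as did AK119929, which is too dim on most arrays for this to be a measured change. The causes were not tested.

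Same-numbered arrays of a genotype shared a slide in 21 of 22 pairs, and the correlations of their deviations ran from −0.03 to 0.46. With the number as a replicate block, 4 probes were called for the mean effect (2.74% of all probes). Between genotypes, 6 were called at 0 mM (64.7%) and 4 at 120 mM (43.3%). None was called within genotypes (0.562% of all pairs of a probe and a genotype) or between their effects (0.824%). With pairs of 1 genotype and slide as a block, 0 were called for the mean effect (26 of all probes, with 14 residual degrees of freedom), and none within genotypes, between their effects or by tolerance. Differences between genotypes at one dose cannot be estimated in that fit.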
